A study of Mus musculus with 8 samples.

Results

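The stage dependence of the Bmi1 effect was examined in all 8 of the 8 arrays of this study, as the difference between the effect in embryoid bodies and the effect in undifferentiated embryonic stem (ES) cells. CCE is an ES cell line of mouse strain 129/Sv, kept undifferentiated on gelatin with leukaemia inhibitory factor. The cells labelled Bmi1 had been infected with a lentivirus carrying mouse BMI1 cDNA and sorted for the green fluorescent protein eGFP, while vector cells had received the empty virus. Embryoid bodies are aggregates in which ES cells differentiate into a mixture of cell types, and they were harvested on day 10. There were 2 arrays of embryoid bodies labelled Bmi1, 2 of vector embryoid bodies, 2 of ES cells labelled Bmi1, and 2 of control ES cells, of which 1 came from untreated and 1 from empty vector cells. Neither ES cell control was duplicated, so their scatter includes any difference between untreated and vector cells. The embryoid body control was vector only. An effect of the empty virus would thus enter the comparison of stages in part and cannot be told apart. The labels name no separate infections, cultures or clones behind the replicates, so the p-values speak for the scatter of these 8 arrays, part of which may be technical.

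Bmi1 is a subunit of Polycomb repressive complex PRC1, which ubiquitinates histone H2A and keeps target genes silent, among them the cell cycle inhibitor locus Cdkn2a and the Hox genes of body patterning. In ES cells many developmental regulators are held silent by Polycomb complexes, and each lineage releases its own subset when the cells differentiate. A gene can thus be open to an effect of Bmi1 at 1 stage and closed at another, and for each gene the question was whether the difference between labelled Bmi1 and control cells was the same before and after differentiation. Levels are log2 values, on which 1 unit is a 2-fold change. The interaction is the embryoid body difference (labelled Bmi1 minus vector) minus the ES cell difference (labelled Bmi1 minus control), so that 0 means the same difference at both stages.

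All 10 ES cell markers checked lay above the array's median on all 8 arrays, with a mean level of 12.26 to 12.63 in ES cells and 8.46 to 10.42 in embryoid bodies. The markers of heart, red cells and fibroblasts averaged 4.21 to 4.78 in ES cells and 7.30 to 11.33 in embryoid bodies. In whole embryoid bodies, fewer cells of a type and less RNA per cell cannot be told apart. The value distributions of the arrays fell into 3 sets, namely the 4 ES cell arrays, the embryoid body arrays numbered 1 and those numbered 2. Pairs of arrays within a set differed by a mean of 0.01 to 0.03 log2 units over ranked probe sets, and pairs across sets by 0.189 to 0.442. Each embryoid body set holds 1 labelled Bmi1 and 1 vector array, so a difference taken inside a set does not contain the offset between sets.

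The array signal of Bmi1 went against the labels at both stages. In embryoid bodies Bmi1 measured 7.48 and 8.51 with the Bmi1 label, where the vector arrays gave 9.35 and 9.67. In ES cells it measured 5.68 and 6.28 with the label, where the control arrays gave 7.41 and 7.74. It was lower in every array labelled Bmi1 than in every control of its stage, by 1.51 log2 units in embryoid bodies and 1.59 in ES cells. The interaction of 0.08 (SE 0.36, 95% interval -0.77 to 0.94) did not pass the test (adjusted p = 0.932), and it took the values -0.27 and 0.44 in the embryoid body sets 1 and 2. A second Bmi1 probe set was also lower with the label, by 1.59 in embryoid bodies and 1.58 in ES cells. No source used here says whether either probe set can read the viral cDNA, so the directions below are those of the labels. Cdkn2a, which encodes the inhibitor p16 and the p53 activator Arf, measured 3.96 and 3.83 against 4.42 and 4.16 in embryoid bodies and 4.81 and 4.81 against 6.11 and 5.88 in ES cells. The arrays labelled Bmi1 were the lower ones at both stages, and the interaction of 0.79 (SE 0.17) did not pass the test (adjusted p = 0.093). Every embryoid body array lay below its median, so the difference of -0.39 there was one between values near the floor and did not pass (adjusted p = 0.143). In ES cells the difference of -1.18 passed (adjusted p = 0.017), with both arrays labelled Bmi1 below the median.

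Across the 12982 genes tested, the 2 stages shared little of the difference between labelled Bmi1 and control. As a description over genes, which are not independent replicates, the embryoid body and ES cell differences correlated at Pearson's r = 0.09 (Spearman's rho = 0.05). The 2 embryoid body sets correlated with each other at r = 0.43. The differences were of like size at the 2 stages, with a root mean square of 0.36 log2 units in embryoid bodies and 0.33 in ES cells.

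Whether single genes passed a test of the interaction depended on how the 2 embryoid body sets were treated. Without a term for the set, limma called 0 of 12982 interactions (0%) at an adjusted p under 0.05, with a smallest adjusted p of 0.129, while 887 genes (6.83%) had an unadjusted p under 0.05. With the set as a block within embryoid bodies, which leaves every estimate as it is and changes the error, limma called 107 (0.824%), of which 46 (0.354%) were positive and 61 (0.47%) negative. The term lowered the root mean square residual in embryoid bodies from 0.297 to 0.114, against 0.125 in ES cells, and the median SE of an interaction from 0.327 to 0.195. The calls with the block also rested on single arrays: 0 were left without the first ES cell array labelled Bmi1, 55 without the second, and 0 without either control ES cell array. From set 1 alone 242 genes were called and from set 2 alone 0. A fit on 1 set alone leaves 1 array in each embryoid body state, so its error comes from the ES cell arrays only. In every fit named in this paragraph, all 107 kept their direction. This outcome was fixed in advance, because in each gene both within-set embryoid body differences lay on 1 side of all ES cell differences. Below, the 107 are named as called only in the sense of the fit with the block.

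In each of the 107 genes, both within-set embryoid body differences lay on 1 side of all 4 ES cell differences, which was also so for 41.2% of all genes (15.8% above and 25.4% below). By size, 34 of them were set down as differing in embryoid bodies only, with at least 1 log2 unit there and under 0.5 in ES cells. Another 20 differed in ES cells only by the same sizes, 29 were reversed, with opposite signs and at least 0.5 units at each stage, and 24 fell in none of these classes. Dsc2 stood just inside the ES cell class with an embryoid body difference of -0.48, and Serpinh1 just outside it at -0.52. An estimate under 0.5 does not show that there was no difference at that stage.

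**Figure D1:**
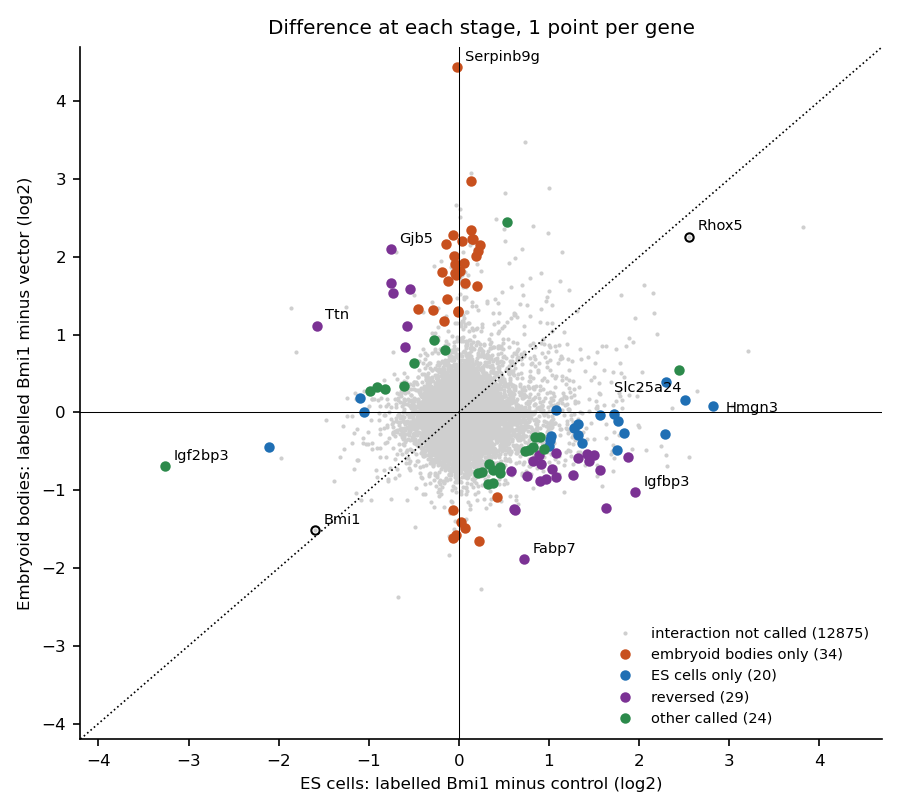
Each point is 1 of the 12982 genes, with the ES cell difference (labelled Bmi1 minus control, log2) on the x axis and the embryoid body difference on the y axis; the dotted line marks equal differences. The 34 genes of the embryoid body class lie along the vertical axis, the 20 of the ES cell class along the horizontal one and the 29 reversed genes at the upper left and lower right, while Bmi1 and Rhox5 lie near the dotted line.

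A difference called at 1 stage and not at the other was mostly not shown to differ between stages. With the block, 271 genes were called in embryoid bodies (2.09%) and 216 in ES cells (1.66%), and 12 were called at both. Of all genes tested, 1.35% were called higher and 0.739% lower in embryoid bodies labelled Bmi1, and 1.39% higher and 0.27% lower in ES cells labelled Bmi1. Of the 463 genes called at 1 stage only, 101 had a called interaction. Without the block, 18 genes were called in embryoid bodies (0.139%) and 6 in ES cells (0.0462%).

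Genes that differed in embryoid bodies only were mostly higher in those labelled Bmi1, and most were barely detected in ES cells. In this class 27 genes were higher and 7 lower, by a median of 1.90 log2 units (range 1.18 to 4.44) among the 27. The same 27 had a median level of 4.48 in control and 4.45 in labelled Bmi1 ES cells, against 6.23 in vector and 8.17 in labelled Bmi1 embryoid bodies. In 25 of the 34 genes all 4 ES cell arrays lay at or below their median, against 1104 of all 12982 genes tested. The ES cell difference of these 25 was thus one between values near the floor. In 9 genes all 4 ES cell arrays lay above the median.

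Serpinb9g, a member of a serpin family expanded in the mouse, had the largest interaction. It measured 11.23 and 11.43 in embryoid bodies labelled Bmi1, 5.92 and 7.86 in vector embryoid bodies, 2.96 and 2.93 in ES cells labelled Bmi1 and 3.06 and 2.87 in control ES cells. All ES cell arrays were near the floor, and the groups did not overlap in embryoid bodies. The interaction of Serpinb9g was 4.46 (SE 0.50, 95% interval 3.25 to 5.66; adjusted p = 0.0212 with the block and 0.233 without). The neighbouring family member Serpinb9d gave 1.86 (SE 0.18, adjusted p = 0.0159), with 6.97 and 6.95 against 5.01 and 4.75 in embryoid bodies and at most 4.30 in ES cells. Serpinb9c, at 1.31, did not pass (adjusted p = 0.0632), but its second probe set gave 3.57, and the mean of both, 2.44, was called (adjusted p = 0.00885). Serpinb9d and Serpinb9c passed the filter only through the 2 embryoid body arrays labelled Bmi1, where they were high. Near-identical serpins may share probes.

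Pparg, the nuclear receptor that directs fat storage and is needed in the placenta, measured 8.37 and 8.28 in embryoid bodies labelled Bmi1 and 5.67 and 6.40 in vector ones, against 3.67 to 3.88 on the 4 ES cell arrays. Here too the ES cell arrays were at the floor and the embryoid body groups were apart. The interaction was 2.36 (SE 0.28, 95% interval 1.69 to 3.03; adjusted p = 0.0262). The uncharacterised gene 1700011M02Rik gave 2.83 (SE 0.20, adjusted p = 0.0159), and Dmkn, a secreted protein of stratified epithelia, gave 2.21 (SE 0.26, adjusted p = 0.0238). Both were between 3.78 and 4.80 on every ES cell array. Their vector embryoid body arrays also lay below the median, so both genes passed the filter only through the 2 embryoid body arrays labelled Bmi1. Dmrtc1a, a DMRT-like gene of the X chromosome, was detected at both stages, at 9.14 and 8.26 against 6.73 and 6.33 in embryoid bodies and 6.19 and 6.0 against 6.27 and 6.21 in ES cells. Its interaction was 2.31 (SE 0.21, adjusted p = 0.0159).

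Pln encodes phospholamban, the brake on the calcium pump of heart muscle. It measured 7.69 and 7.82 in embryoid bodies labelled Bmi1, 5.90 and 6.02 in vector ones and 4.30 to 4.59 in ES cells. Its interaction was 1.83 (SE 0.20, 95% interval 1.36 to 2.30; adjusted p = 0.0209). The mean of 4 heart markers was also higher in embryoid bodies labelled Bmi1 (10.09 to 10.37) than in vector ones (7.30 to 9.68), and its part in this result was not tested. Tfrc, the transferrin receptor that brings iron into dividing cells and red cell precursors, was among the most strongly detected members of the class. It measured 12.12 and 12.25 against 10.65 and 11.13 in embryoid bodies, and 12.85 and 12.88 against 12.84 and 12.89 in ES cells. The ES cell arrays were nearly identical and the embryoid body groups apart, and the interaction was 1.30 (SE 0.17, adjusted p = 0.0388), or 1.45 as a mean over probe sets, not called.

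The 7 genes of this class that were lower in embryoid bodies labelled Bmi1 were Hbb-bh1, 2610528A11Rik, Scel, Hoxa10, Tek, Zfp804a and Aplnr, with embryoid body differences of -1.09 to -1.66. Hoxa10, a posterior Hox gene and known Polycomb target, measured 4.99 and 5.19 in embryoid bodies labelled Bmi1 and 6.77 and 6.56 in vector ones, against 3.48 to 3.74 in ES cells. Like Scel and 2610528A11Rik, it lay above the median only on the 2 vector embryoid body arrays, through which it passed the filter. Its interaction was -1.55 (SE 0.22, adjusted p = 0.0436); with its other, dim probe set the mean was -0.84, and that mean level was too low to be tested. Hbb-bh1, an embryonic globin of primitive red cells, measured 8.06 and 9.19 against 9.74 and 10.83 in embryoid bodies and 4.27 to 4.87 in ES cells, with an interaction of -1.88 (SE 0.25, adjusted p = 0.0397). Within each set the array labelled Bmi1 was the lower one, although the groups came close across sets. The mean of 3 red cell markers, of which Hbb-bh1 is 1, was 8.10 to 8.89 with the Bmi1 label and 9.77 to 10.47 with the vector, and its part in the result was not tested. Tek, the angiopoietin receptor of endothelium, measured 6.66 and 7.12 against 7.90 and 8.06 in embryoid bodies and 6.31 and 6.28 against 6.05 and 5.68 in ES cells. It was above the array's median at both stages, and its interaction was -1.52 (SE 0.22, adjusted p = 0.0436). The mean of 4 endothelial markers, of which Tek is 1, was 6.90 to 7.35 in embryoid bodies labelled Bmi1 and 7.94 to 7.96 in vector ones, and its part in the result was not tested.

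Of 25 interferon response genes with a probe set, 18 were called higher in embryoid bodies labelled Bmi1 and 1 in ES cells labelled Bmi1, against 1.35% and 1.39% of all genes. These genes encode the sensors, enzymes and effectors that cells switch on in response to interferon. The list held 28 genes, and 23 of the 25 passed the filter. A called positive interaction was found for 9, namely Xaf1, Ifi35, Rsad2, Ifih1, Oasl2, Ifit1, Ddx58, Isg20 and Parp14, and a negative one for 0, against 0.354% and 0.47% of all genes. The median interaction over the 25 was 1.04 against -0.06 over all genes tested. It came from a median embryoid body difference of 1.15 and an ES cell difference of -0.02. Of the 23 tested members, 9 had all ES cell arrays at or below the median, so these passed the filter through embryoid bodies alone.

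Ifih1, which encodes the double-stranded RNA sensor MDA5, measured 9.74 and 9.02 in embryoid bodies labelled Bmi1 and 7.64 and 7.10 in vector ones, against 4.39 to 4.58 in ES cells. Its interaction was 2.07 (SE 0.17, 95% interval 1.65 to 2.48; adjusted p = 0.0159). Ddx58, the sensor RIG-I, was well above the median at both stages and reversed, with 9.15 and 9.35 against 8.25 and 8.56 in embryoid bodies and 8.17 and 8.40 against 8.76 and 9.01 in ES cells. Both ES cell arrays labelled Bmi1 were below both controls, and the interaction was 1.44 (SE 0.20, adjusted p = 0.0412), or 0.90 as a mean over its 3 probe sets, not called. Ifi35, an interferon-induced leucine zipper protein, measured 10.49 and 10.25 against 8.88 and 8.69 in embryoid bodies and 4.77 and 4.49 against 5.26 and 5.07 in ES cells, with an interaction of 2.13 (SE 0.20, adjusted p = 0.0159). Its ES cell values lay at or below the array's median. Its other probe sets, which passed the filter, gave interactions of 1.00 and 1.22 with ES cell differences of -0.06 and -0.24, too small to count as reversed.

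Xaf1, a pro-apoptotic interferon target, measured 8.57 and 8.31 against 7.01 and 6.79 in embryoid bodies and 7.11 and 7.50 against 7.68 and 8.40 in ES cells. Its interaction was 2.28 (SE 0.35, adjusted p = 0.0498), and 1.40 as a mean over its probe sets, which was not called. Parp14, an ADP-ribosyltransferase, was detected at both stages, at 7.75 and 7.68 against 6.42 and 6.42 in embryoid bodies and 5.99 and 5.96 against 5.97 and 6.0 in ES cells. The ES cell arrays were nearly identical, and the interaction was 1.30 (SE 0.15, adjusted p = 0.0212), or 0.85 as a mean over probe sets, not called. Not every member shared the pattern. Gbp2, a guanylate-binding GTPase, was called higher at both stages, by 1.51 in embryoid bodies and 1.80 in ES cells, with an interaction of -0.29 (95% interval -1.05 to 0.48). Bst2, which tethers budding viruses to the cell, differed by 1.12 in embryoid bodies and 0.72 in ES cells, with an interaction of 0.40 (adjusted p = 0.44). Oasl1 and Ifit2 had embryoid body differences of 0.27 and 0.15 and interactions of 0.14 and 0.21, none of them called. The mean of 4 leukocyte markers, a cell type rich in these transcripts, was 8.39 and 8.30 on the embryoid body arrays with the Bmi1 label and 9.01 and 7.31 on the vector arrays of sets 1 and 2. Within sets it differed by -0.62 and 1.00, and its part in the result was not tested.

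**Figure D2:**
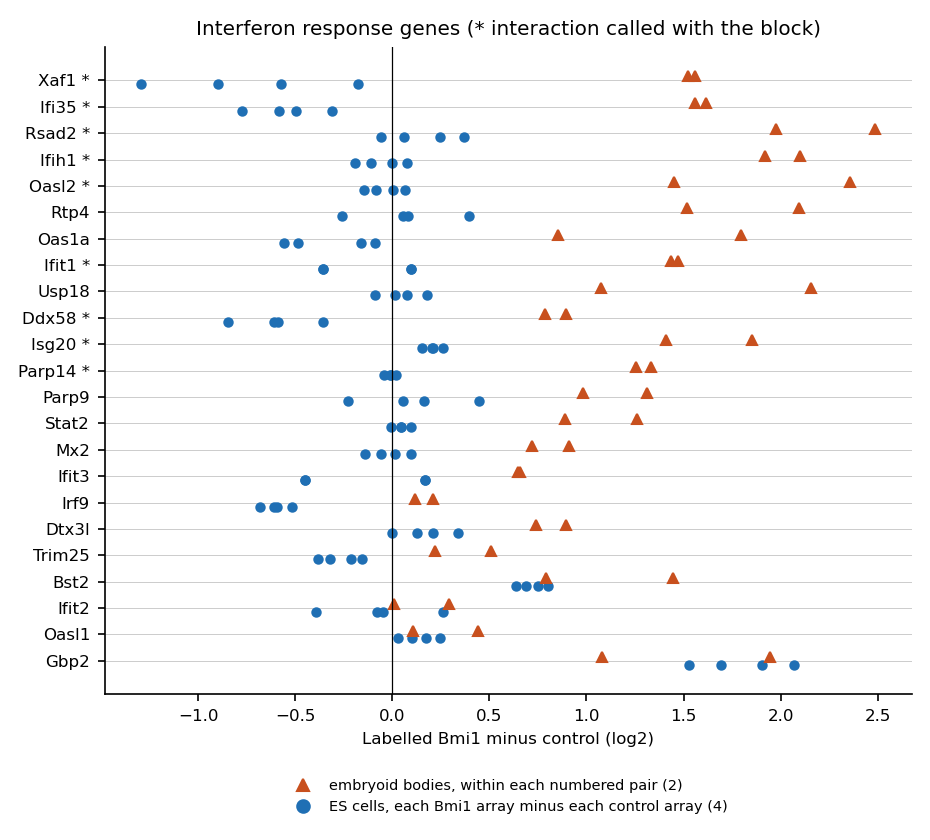
Differences between labelled Bmi1 and control (x axis, log2) for the 23 tested interferon response genes, with triangles for the 2 within-set embryoid body differences and circles for the 4 ES cell array pairs; an asterisk marks an interaction called with the block. Triangles of Xaf1, Ifi35 and Ddx58 lie right of 0 and their circles left of it, and for Gbp2 the symbols overlap.

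The promoters of 2 of these genes, picked from those with a match, are printed to show the element by which such genes are usually recognised, the interferon-stimulated response element. They run from 250 bases before to 50 after the RefSeq start on GRCm38.p6, 5′ to 3′ on the gene's strand, with capitals for each match to GAAANNGAAA, searched on both strands with overlaps allowed. Rsad2, the antiviral radical SAM enzyme viperin, lies on the minus strand at chr12:26456403-26456702. Ifit1, which binds foreign RNA ends, lies on the plus strand at chr19:34640639-34640938.
Rsad2: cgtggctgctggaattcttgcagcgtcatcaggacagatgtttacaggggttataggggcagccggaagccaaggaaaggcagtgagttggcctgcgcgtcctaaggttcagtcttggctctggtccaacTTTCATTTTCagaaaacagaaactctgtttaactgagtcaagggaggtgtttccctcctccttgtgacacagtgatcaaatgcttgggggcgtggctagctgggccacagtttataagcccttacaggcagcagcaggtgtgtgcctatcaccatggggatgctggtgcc
Ifit1: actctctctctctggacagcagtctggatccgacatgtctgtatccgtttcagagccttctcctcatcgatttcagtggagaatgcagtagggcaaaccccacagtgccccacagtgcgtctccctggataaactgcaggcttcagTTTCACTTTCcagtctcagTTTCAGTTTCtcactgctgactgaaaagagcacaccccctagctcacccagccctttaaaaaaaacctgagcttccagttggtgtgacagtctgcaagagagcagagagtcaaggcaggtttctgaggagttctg

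A match was found in 9 of the 19 interferon response genes with a RefSeq promoter (47.4%), against 357 of 10444 genes tested (3.42%). Among genes with a called positive interaction it was found in 9 of 40 (22.5%), and in 5 of 32 (15.6%) once the interferon list was set aside. Among those with a called negative interaction it was found in 1 of 46 (2.17%). The 5 genes outside the list with a match were Ddx60, Igf2bp3, Lgals9, Plekha4 and Tmem140. Genes outside the list were not checked for a response to interferon, so the 32 may still hold such genes. A match is a description of these letters and not a bound site. Rsad2 measured 11.42 and 10.28 in embryoid bodies labelled Bmi1 and 8.93 and 8.30 in vector ones, against 5.94 to 6.31 in ES cells, and its interaction was 2.08 (SE 0.24, adjusted p = 0.0224). Ifit1 measured 9.01 and 8.42 against 7.57 and 6.95 in embryoid bodies and 3.32 to 3.77 in ES cells, with an interaction of 1.58 (SE 0.23, adjusted p = 0.0436). The groups of both genes were apart in embryoid bodies and overlapped in ES cells.

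Genes that differed in ES cells only were mostly higher in ES cells labelled Bmi1, and most were well detected in embryoid bodies. In this class 17 genes were higher and 3 lower, by a median of 1.57 log2 units (range 1.00 to 2.83) among the 17. Of all ES cell differences called with the block, 181 were higher and 35 lower, so the direction was not particular to the class. The median level of the 17 was 6.08 in control and 7.49 in labelled Bmi1 ES cells, against 8.72 in vector and 8.40 in labelled Bmi1 embryoid bodies. All 4 embryoid body arrays lay above their median in 16 of the 20. The 3 lower genes were Tut4, Plekha4 and Tenm3.

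Hmgn3, a nucleosome-binding high mobility group protein, measured 10.73 and 10.16 in ES cells labelled Bmi1 and 7.61 and 7.64 in control ES cells, while all 4 embryoid body arrays lay between 9.09 and 9.59. The ES cell groups were far apart and the embryoid body groups overlapped. The interaction was -2.74 (SE 0.28, 95% interval -3.41 to -2.07; adjusted p = 0.018), and its other probe set gave -2.92. Slc25a24, a mitochondrial carrier of ATP-magnesium and phosphate, measured 8.62 and 8.55 against 6.0 and 6.15 in ES cells and 10.59 and 10.57 against 10.73 and 10.11 in embryoid bodies. Its interaction was -2.35 (SE 0.23, 95% interval -2.90 to -1.81; adjusted p = 0.0162).

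Myl9, the regulatory light chain of smooth muscle and non-muscle myosin, measured 8.70 and 8.92 against 6.10 and 6.94 in ES cells and 8.62 and 8.81 against 8.65 and 9.33 in embryoid bodies. The raised ES cell arrays thus reached the level of embryoid bodies, and the interaction was -2.56 (SE 0.39, adjusted p = 0.0498). Clu, the secreted chaperone clusterin, measured 10.04 and 10.30 against 8.22 and 8.45 in ES cells and 11.54 and 11.18 against 12.04 and 11.20 in embryoid bodies, with an interaction of -2.10 (SE 0.24, adjusted p = 0.0212). Dsc2, a desmosomal cadherin, measured 6.52 and 6.72 against 4.75 and 4.97 in ES cells and 9.94 and 9.87 against 10.91 and 9.87 in embryoid bodies. Its interaction was -2.24 (SE 0.32, adjusted p = 0.0436), and -1.45 as a mean over probe sets, not called. In all 3 genes the ES cell groups were apart and the embryoid body arrays overlapped or touched.

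Further members of the ES cell class, named after their values were seen, were App, Cdh2, Fgf13 and Tenm3. App, the amyloid precursor protein, measured 8.31 and 8.44 against 6.67 and 6.64 in ES cells, while its embryoid body arrays lay between 11.64 and 11.94, and its interaction was -1.74 (SE 0.19, adjusted p = 0.0212). A second bright probe set of App gave -1.54, while the mean with 2 dim ones gave -0.87, not called. Cdh2, N-cadherin, gave -1.62 (SE 0.18, adjusted p = 0.0212) and Fgf13, an intracellular FGF homologue that binds sodium channels, gave -1.60 (SE 0.16, adjusted p = 0.0166). With the other, dim probe set of Fgf13 the mean was -0.80, not called. Tenm3, a teneurin adhesion receptor, was lower in ES cells labelled Bmi1 by 2.10, with 7.36 and 7.06 against 9.41 and 9.22. In embryoid bodies Tenm3 measured 9.50 and 10.19 against 10.19 and 10.38, and the interaction was 1.66 (SE 0.24, adjusted p = 0.0436).

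**Figure D3:**
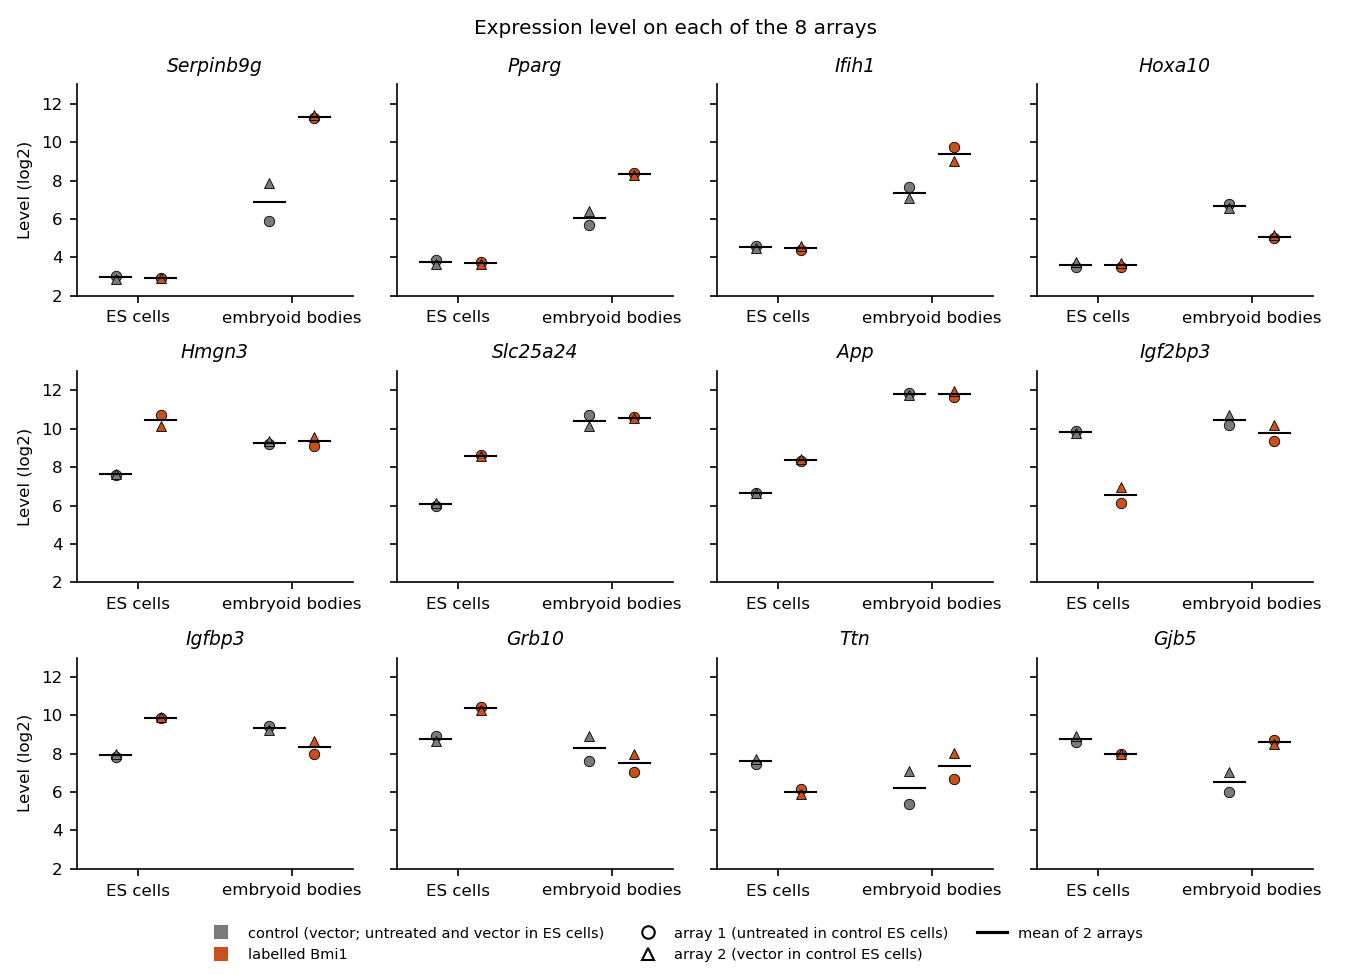
Levels (log2) of 12 genes on each of the 8 arrays, with grey for controls, orange for labelled Bmi1, circles and triangles for arrays 1 and 2 and a bar for the mean of 2. The top row shows genes of the embryoid body class, Hmgn3, Slc25a24 and App stand apart in ES cells only, and the bottom row shows reversed genes, such as Igfbp3, which was higher in ES cells labelled Bmi1 and lower in embryoid bodies labelled Bmi1.

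Igf2bp3, an oncofetal RNA-binding protein of Igf2 mRNA, belonged to none of the classes, because its embryoid body difference was above 0.5 and of the same sign. It measured 6.14 and 6.97 against 9.87 and 9.76 in ES cells and 9.37 and 10.19 against 10.21 and 10.72 in embryoid bodies. It was thus lower with the Bmi1 label at both stages, by 3.26 in ES cells and 0.69 in embryoid bodies, of which the ES cell difference was called (adjusted p = 0.0091). The interaction was 2.57 (SE 0.37, 95% interval 1.69 to 3.45; adjusted p = 0.0435).

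Among the 29 reversed genes, 22 were higher in ES cells labelled Bmi1 and lower in embryoid bodies labelled Bmi1, and 7 went the opposite way. The 22 had a median difference of 1.06 in ES cells and -0.75 in embryoid bodies. Only 3 of the 29, Ttn, Sox18 and AI504432, were called at both stages. For the rest the reversal is one of estimates, with a called interaction between them. Opposite signs in every array comparison were also seen in 13.5% of all genes tested.

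Igfbp3, a binding protein that limits insulin-like growth factors, measured 9.83 and 9.90 in ES cells labelled Bmi1 and 7.82 and 7.99 in controls, but 8.00 and 8.65 in embryoid bodies labelled Bmi1 and 9.45 and 9.24 in vector ones. The groups were apart at each stage in opposite directions. The interaction was -2.98 (SE 0.28, adjusted p = 0.0159), and a further probe set gave -2.83. Igfbp4, another such protein, gave -2.05 (SE 0.32, adjusted p = 0.0498) and -1.27 as a mean over probe sets, not called. Grb10, an imprinted adaptor that restrains insulin and IGF receptor signalling, measured 10.43 and 10.26 against 8.92 and 8.63 in ES cells and 7.06 and 8.00 against 7.63 and 8.91 in embryoid bodies. Its embryoid body arrays overlapped across sets but not within them. The interaction was -2.31 (SE 0.21, adjusted p = 0.0159), or -1.27 as a mean over its probe sets, which was also called. Another Grb10 probe set that passed the filter gave -0.83. Its embryoid body difference was -0.21, too small to count as reversed.

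Klhl4, a kelch-family protein, measured 5.07 and 4.62 against 3.21 and 3.20 in ES cells and 6.59 and 7.42 against 8.22 and 8.25 in embryoid bodies, with an interaction of -2.87 (SE 0.32, adjusted p = 0.0212). With its other, dim probe set the mean was -1.38, and that mean level was too low to be tested. Its ES cell values were all at or below the array's median. Fabp7, the fatty acid-binding protein of radial glia, measured 5.63 and 6.82 against 7.56 and 8.67 in embryoid bodies and 5.04 and 4.57 against 4.14 and 4.0 in ES cells. Here too the ES cell values lay at or below the median, and the interaction was -2.62 (SE 0.24, adjusted p = 0.0159). The mean of 4 neural markers, without Fabp7, differed by -1.04 and -1.37 within the embryoid body sets 1 and 2. In ES cells it was 5.94 to 6.38 with the Bmi1 label and 6.64 to 7.07 in controls, and its part in the result was not tested. Cdk14, a cyclin Y-dependent kinase, measured 6.54 and 6.39 against 4.43 and 4.74 in ES cells and 8.43 and 8.76 against 9.20 and 9.15 in embryoid bodies. The interaction was -2.45 (SE 0.22, adjusted p = 0.0159); its 2 other probe sets were dim, and the mean over all gave -0.95, not called.

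Sox18, an endothelial transcription factor, measured 6.38 and 6.16 against 5.46 and 5.26 in ES cells and 6.96 and 6.75 against 8.05 and 7.41 in embryoid bodies. Its groups were apart at both stages, and the interaction was -1.78 (SE 0.22, adjusted p = 0.0278). Lmo2, a bridging factor of blood stem cell and endothelial transcription complexes, measured 6.78 and 6.60 against 5.91 and 5.96 in ES cells and 7.50 and 8.08 against 8.61 and 8.62 in embryoid bodies, with an interaction of -1.58 (SE 0.22, adjusted p = 0.0434). Neither stage was called on its own for Lmo2. It was the 1 called member, against 0.354% positive and 0.47% negative of all genes, among 16 blood transcription factors with a median interaction of -0.30. Gata2, a factor of blood stem cells on the same list, went the other way, higher by 1.43 in embryoid bodies labelled Bmi1 (adjusted p = 0.0109), and its interaction of 1.12 did not pass (adjusted p = 0.061). Pim2, a survival kinase of haematopoietic cells, measured 9.42 and 9.65 against 8.65 and 8.26 in ES cells and 7.06 and 7.18 against 7.65 and 8.25 in embryoid bodies, and gave -1.92 (SE 0.26, adjusted p = 0.0404).

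Dab2, an endocytic adaptor abundant in visceral endoderm, measured 7.29 and 7.11 against 6.12 and 5.74 in ES cells and 8.64 and 8.95 against 9.58 and 9.63 in embryoid bodies. Its interaction was -2.08 (SE 0.23, adjusted p = 0.0212), and -1.19 as a mean over its probe sets, which was also called. The other Dab2 probe sets, which passed the filter, gave interactions of -1.46, -0.96 and -0.24. The ES cell difference was 0.51 in the first of these. In the others it was 0.03 and 0.18, too small to count as reversed. Ndn, the imprinted growth suppressor necdin, measured 9.76 and 9.42 against 8.56 and 8.68 in ES cells and 10.95 and 10.82 against 12.00 and 11.49 in embryoid bodies. The interaction was -1.83 (SE 0.23, adjusted p = 0.0294). Further probe sets of Ndn that passed the filter gave -1.82, -1.88, -1.67 and -1.10. The one at -1.10 had an embryoid body difference of -0.27, too small to count as reversed. The mean over all, dim ones included, gave -1.03, not called. The imprinted membrane protein Nnat, with 7.80 and 7.68 against 6.31 and 6.33 in ES cells and 9.40 and 9.61 against 10.00 and 10.08 in embryoid bodies, gave -1.96 (SE 0.16, adjusted p = 0.0159). In all 3 genes the groups were apart at each stage.

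The 7 genes that reversed the other way were Gjb5, Ttn, Lgals3, Xaf1, Ifi35, Samd9l and Ddx58, of which Xaf1, Ifi35 and Ddx58 stood on the interferon list. The other Ifi35 probe sets, which passed the filter, did not meet the sizes of this class. Ttn, the giant spring protein of the sarcomere, measured 6.17 and 5.88 against 7.48 and 7.72 in ES cells, and 6.66 and 8.04 against 5.38 and 7.08 in embryoid bodies. The embryoid body groups overlapped across sets, although the array labelled Bmi1 was higher within each set. The interaction was 2.69 (SE 0.22 with the block and 0.86 without, adjusted p = 0.0159 and 0.53). A second probe set that passed the filter gave 2.11, while the mean over all 6, of which 4 were dim, was 0.88, at a level too low to be tested. Gjb5, a connexin of skin and placenta, measured 7.99 and 8.00 against 8.61 and 8.89 in ES cells and 8.73 and 8.51 against 6.01 and 7.02 in embryoid bodies, with an interaction of 2.86 (SE 0.38, adjusted p = 0.0388). Lgals3, the lectin galectin-3, measured 9.74 and 10.39 against 10.63 and 11.00 in ES cells and 12.07 and 11.44 against 10.21 and 9.96 in embryoid bodies. Both of these genes had their groups apart at each stage, and Lgals3 gave 2.42 (SE 0.34, adjusted p = 0.0424).

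**Figure D4:**
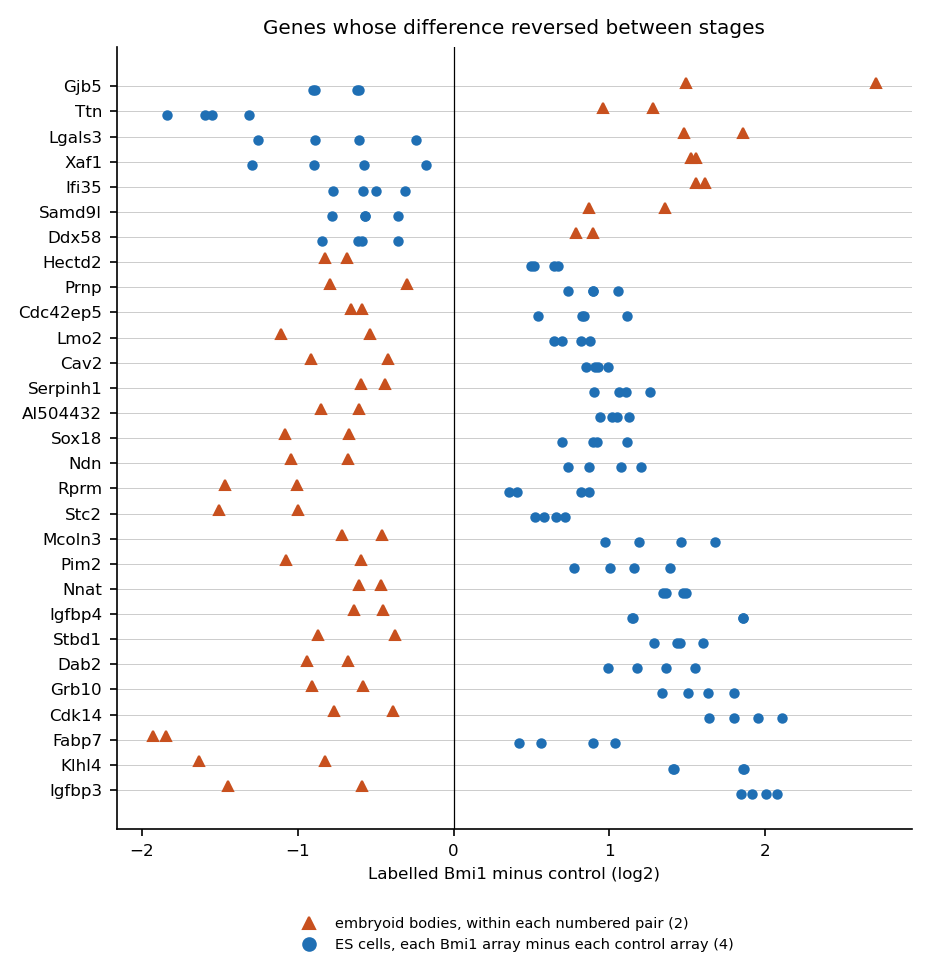
Differences between labelled Bmi1 and control (x axis, log2) for the 29 reversed genes, with triangles for the 2 within-set embryoid body differences and circles for the 4 ES cell array pairs. In every gene shown the triangles lie on 1 side of 0 and the circles on the other, and in 22 genes the circles are the positive ones.

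Gene lists for tissues and pathways, chosen with earlier results known, differed in the stage at which their median lay away from 0. On a cardiac muscle list of 19 genes, the median interaction was 0.87, with 0.74 in embryoid bodies and -0.01 in ES cells, and 2 interactions were called, both positive (Ttn and Pln; 0.354% of all genes). The within-set embryoid body medians of this list were 1.28 and 0.31, so most of it lay in set 1. Endothelial genes, 20 in all, had a median interaction of -0.95, from -0.76 in embryoid bodies and 0.12 in ES cells, with 0 called positive (0.354% of all genes) and 2 negative (Sox18 and Tek; 0.47%). For 15 trophoblast genes the median was 0.74, from 1.11 in embryoid bodies and 0.09 in ES cells, with 0 called by limma in either fit and 3 at an unadjusted p under 0.05 without the block (6.83% of all genes). Of these 15, Plac1 at 1.41 (adjusted p = 0.0606) came nearest to the threshold. The mean of 5 trophoblast markers, of which Plac1 is 1, was 7.64 to 7.84 in embryoid bodies labelled Bmi1. In vector ones it was 7.01 to 7.04, and its part was not tested. The markers did not move together. Plac1, Krt7 and Elf5 were higher with the label within both sets. Hand1 differed little (7.473 and 7.375 against 7.276 and 7.25), and Cdx2 was lower (6.70 and 6.03 against 7.59 and 6.39).

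In other lists the median lay farther from 0 in ES cells. Smooth muscle genes, 12 in all, had a median of 0.71 in ES cells and -0.30 in embryoid bodies, giving a median interaction of -0.71 with 1 called (Myl9, negative; 0.47% of all genes). Tagln, the actin-binding protein transgelin, measured 10.11 and 11.07 against 7.55 and 8.51 in ES cells and 8.49 and 8.39 against 8.77 and 9.25 in embryoid bodies. Its interaction of -3.13 (SE 0.57, adjusted p = 0.0649) was larger than any called negative interaction and did not pass. Fibroblast markers, which mark feeder or stromal cells, averaged 4.58 to 4.59 in ES cells labelled Bmi1 and 4.44 to 4.49 in controls, with 5 of 6 at or below the median on all ES cell arrays, and their part in this result was not tested. Imprinted genes, 18 in all, had medians of 0.66 in ES cells and -0.12 in embryoid bodies, with 3 negative interactions called (Grb10, Nnat and Ndn; 0.47% of all genes) and 0 positive (0.354%).

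Germ cell and meiosis genes had 0 interactions called by limma in either fit and 2 at an unadjusted p under 0.05 without the block, against 6.83% of all genes. Over 22 genes the median was 1.07 in ES cells and 0.32 in embryoid bodies, and 7 were called higher in ES cells (1.39% of all genes), 2 lower in ES cells (0.27%) and 1 higher in embryoid bodies (1.35%). Tex15, a meiotic protein of piRNA silencing, measured 8.84 and 8.66 against 7.48 and 7.35 in ES cells and 7.26 and 7.72 against 7.27 and 7.45 in embryoid bodies. Its interaction of -1.20 (SE 0.19) missed the threshold (adjusted p = 0.051). Rbm46, a meiotic RNA-binding protein, gave -2.37 (SE 0.49, adjusted p = 0.084).

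MHC class I and antigen processing genes had medians near each other at the 2 stages, 0.41 in embryoid bodies and 0.37 in ES cells over 11 genes. By limma, 0 interactions were called in either fit (0.824% of all genes with the block). Without the block 0 had an unadjusted p under 0.05 (6.83% of all genes). With the block, B2m and H2-K1 were called higher in ES cells (1.39% of all genes) and 0 members in embryoid bodies (1.35%). B2m, the light chain of class I molecules, nevertheless measured 10.39 and 10.00 against 8.90 and 9.11 in ES cells and 12.09 and 11.65 against 12.06 and 11.27 in embryoid bodies. Its interaction of -0.98 (SE 0.24) did not pass (adjusted p = 0.118). Of 31 Hox genes with a probe set, 1 was called (Hoxa10, negative; 0.47% of all genes), and the median interaction was -0.22. Hoxa11 at -1.04 (adjusted p = 0.0906) and Hoxd10 at -0.93 (adjusted p = 0.101) did not pass. Of 27 genes of the Polycomb complexes, 0 had a called interaction and 2 an unadjusted p under 0.05 without the block (limma; 6.83% of all genes), with a median of 0.08. Proliferation genes (17, median 0.04), pluripotency genes (22, median 0.18) and cell cycle inhibitors (12, median -0.22) also had 0 called, with 0, 0 and 1 at that unadjusted p.

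**Figure D5:**
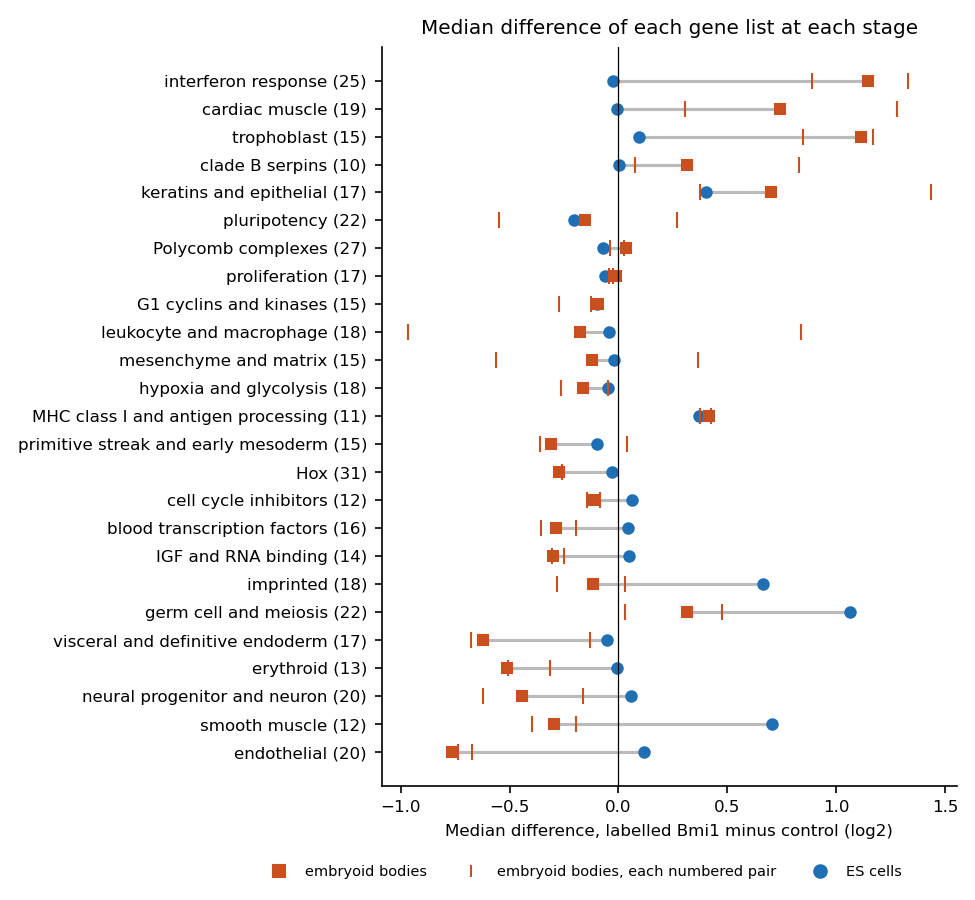
Median difference between labelled Bmi1 and control (x axis, log2) of 25 gene lists, ordered by median interaction, with squares for embryoid bodies, short bars for each embryoid body set and circles for ES cells; the number of genes with a probe set is in brackets. The square and circle are farthest apart for interferon response genes (1.15 and -0.02) and, among lists lower in embryoid bodies, for smooth muscle (-0.30 and 0.71) and endothelial genes (-0.76 and 0.12).

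Other probe sets of the called genes mostly gave the same direction. Of the 107 genes, 60 had another probe set, and of 75 such probe sets that passed the filter 71 had an interaction of the same sign. The 4 exceptions belonged to Cav2, Faxc, Plekha4 and Scarf2, with values of 0.11, 0.38, -0.04 and 0.03.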

How the data were processed

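Expression values of 8 Affymetrix arrays were analysed, 1 per sample. The authors deposited log2 values from RMA, as the submitters' processing notes name it. RMA corrects background, equalises the distributions of arrays run together and summarises probes. No source used here tells which arrays were run together. Of 45101 probe sets, 64 controls were set aside. Symbols came from the platform annotation, checked against a current gene table: 34945 probe sets had 1 symbol, 932 several and 9160 none. A gene was represented by its brightest probe set, and 12982 of 18193 genes, those above the array's median in at least 2 arrays, were tested. Probes of near-identical genes may share signal. The number of arrays limits the precision.

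A linear model with 4 states was fitted with limma 3.58.1 in R 4.3.3 (lmFit, eBayes), with 4 residual degrees of freedom. The alternative with a replicate block, a term for the number of the embryoid body arrays, left 3. It follows the 3 sets of near-equal distributions: deviations of the embryoid body arrays numbered 1 correlated at 0.72, and at 0.03 and 0.04 with ES cell array 1 labelled Bmi1. Since each state has equal arrays per set, estimates are the same in both fits. P-values are two-sided, adjusted by Benjamini-Hochberg over all genes tested, and were called under 0.05. Each SE or adjusted p in the text is that with the block unless stated otherwise.

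Named were Bmi1 and Cdkn2a, the 10 most positive and 10 most negative called interactions whose arrays were apart, up to 10 reversed genes with the largest smaller difference, and up to 3 members of each of 25 gene lists (467 entries, 439 with a probe set). The members and lists were chosen with earlier results of these data known. No list was tested as a set. Alternatives covered the filter, the probe set, the scaling, the prior, weights, sizes of the classes and each array left out.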

Additional observations from a re-analysis of the deposited data

Results flagged for a closer look

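With the block, 107 genes had an interaction at an adjusted p under 0.05 (limma), and without it 0. In 65 of the 107, the differences of the embryoid body sets all had 1 sign and those of the ES cell arrays the other. Among these are 21 genes chosen by the naming rule, each picked out for this difference between stages. Positive interactions, with a higher value in embryoid bodies labelled Bmi1 and a lower one in ES cells labelled Bmi1, were those of Gjb5 (2.86), Ttn (2.69), Lgals3 (2.42), Dmrtc1a (2.31), Xaf1 (2.28) and Ifi35 (2.13). Negative ones were larger in number. They were those of Igfbp3 (-2.98), Klhl4 (-2.87), Fabp7 (-2.62), Myl9 (-2.56), Cdk14 (-2.45), Grb10 (-2.31), Clu (-2.10), Dab2 (-2.08), Igfbp4 (-2.05), Nnat (-1.96), Pim2 (-1.92), Ndn (-1.83), Sox18 (-1.78), Lmo2 (-1.58) and Tek (-1.52). Of all genes tested, 13.5% showed opposite signs in this way.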

How the results depend on the processing

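The replicate block changed the calls, as did other choices given here. With it, interactions called went from 0 to 107, embryoid body differences from 18 to 271 and ES cell differences from 6 to 216, and the classes from 0 to 34, 20 and 29 (33, 10 and 59 with sizes of 0.75 and 0.25 log2 units). Without the block, interactions called stayed at 0 except for 1 with the mean of probe sets; embryoid body calls were 2 with the 75th percentile filter, 7 with every probe set, 6 with median centring, 3 with the trended robust prior and 0 with array weights or a spread by stage, and ES cell calls were 0 with every probe set or quantile normalization, 3 with mean probe sets, 641 with array weights and 648 with a spread by stage. With the block and another choice (chosen after seeing the data), interaction, embryoid body and ES cell calls were 95, 269 and 231 with no filter, 72, 173 and 155 with the 75th percentile, 66, 140 and 96 with every probe set, 109, 249 and 130 with mean probe sets, 69, 519 and 32 with quantile normalization, 105, 279 and 228 with centring, 131, 420 and 227 with the trended robust prior, 64, 47 and 418 with array weights, and 59, 48 and 405 with a spread by stage. A block over the 6 numbered arrays gave 0, 61 and 30. Only the embryoid body arrays numbered 1 gave 242, 291 and 139, and only those numbered 2 gave 0, 9 and 139. Leaving out single arrays without the block gave 0 to 100 interactions, 0 to 218 embryoid body calls and 0 to 50 ES cell calls, the 100 and 218 without vector embryoid body array 2, where 1 array stands against both sets. With the block, interaction, embryoid body and ES cell calls were 0, 108 and 4 without ES cell array 1 labelled Bmi1, 55, 108 and 119 without array 2, and 0, 56 and 0 without either control. The cause of these shifts was not tested. Wherever they were tested, the 107 genes kept their sign. For fits on the same values that compared embryoid bodies within sets, or left every estimate unchanged, this outcome was fixed in advance. The sign reversed for Bmi1 (-0.27 with quantile normalization and with embryoid body arrays 1 only, -0.43 to 0.60 on leaving out single arrays, with -0.22 without ES cell array 1 labelled Bmi1 and -0.086 without the vector ES cell array also with the block), Wnt3a (-0.013 to 0.94) and Dnmt3l (-2.02 to 0.36), none of them called. Among the lists, quantile normalization turned the median interaction of MHC class I genes to 0.05 and of G1 cyclins and kinases to 0.02.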

Other observations

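A few genes differed alike at both stages. With the block, 9 genes were called at both stages in the same direction: Batf3, Bmi1, Gbp2, H2-Bl, Marveld3, Med12l, Morc4, Pura and Rhox5. Rhox5, an X-linked homeobox gene silenced by DNA methylation in most somatic cells, measured 11.52 and 11.70 against 8.82 and 9.88 in embryoid bodies and 12.52 and 12.18 against 10.01 and 9.59 in ES cells. The groups were apart at both stages, by 2.26 and 2.56 log2 units, and the interaction of -0.29 had a 95% interval of -1.13 to 0.55. Marveld3, a tight junction protein, was higher by 1.31 at each stage, and its interaction of -0.01 had an interval of -0.62 to 0.60. Morc4, a chromatin ATPase, was higher by 0.82 in embryoid bodies and 1.35 in ES cells. Pura, a single-stranded nucleic acid-binding protein, was the gene besides Bmi1 that was lower at both stages, by 0.73 and 1.16. These intervals bound the stage dependence and do not show that it is absent.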
